A study of Mus musculus with 5 samples.

Results

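Of the 5 arrays in this study, 3 carried RNA that read as lung, and the comparison described here sets the kinase-dead arrays among them, KA/KA 2 and KA/KA 3, against the single wild-type one, WT 2. These 3 arrays were chosen by a technical value, the signal of bacterial transcripts that a labelling reaction can be spiked with. The median log2 signal of the 24 probe sets for these poly-A controls (Thr, Phe, Lys and Dap) had to be 10 or less. It was 7.25, 8.05 and 5.97 on KA/KA 2, KA/KA 3 and WT 2. The nearest array outside the border was WT 1 at 12.8, and KA/KA 1 was at 13.5. With 2 arrays against 1, WT 2 has no replicate, and every difference from it holds whatever was particular to that array.

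By their labels all 5 arrays hold RNA of bone marrow cells enriched with magnetic beads for B220, a form of CD45 carried by cells of the B lineage, from mice on the FVB background at 4 weeks of age. KA/KA mice are homozygous for the knock-in K44A, which removes the kinase activity of IKKα from every cell that makes it. The WT mice are littermate controls. No treatment was given to the cells, per the labels, and it is not stated if single mice or pooled mice were hybridised.

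The label was checked against marker genes, and on these 3 arrays genes of B-cell precursors and of lung go against it. Ptprc, the gene of CD45, does not. It read 12.62, 13.48 and 11.93 on KA/KA 2, KA/KA 3 and WT 2, and 13.57 and 13.74 on KA/KA 1 and WT 1. Rag1, the recombinase of B-cell precursors, read 4.09, 4.09 and 4.10 on KA/KA 2, KA/KA 3 and WT 2, in log2(signal + 16), against 12.80 and 12.79 on KA/KA 1 and WT 1. Sftpa1, a surfactant protein of alveolar type 2 cells, read 15.16, 15.04 and 14.22 on the 3 arrays and 5.31 and 5.78 on the other pair. Ager, a marker of alveolar type 1 cells, read 14.06, 14.39 and 14.03, and Scgb1a1, the secretory protein of club cells, 15.16, 15.31 and 14.29. The arrays are therefore named by their labels and described by the genes they carry. All levels from here on are log2(signal + 16), on which 1 unit is close to a 2-fold change for bright genes and less than the true change for dim ones. Values are listed in the order KA/KA 2, KA/KA 3, WT 2 unless stated.

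IKKα is one of the kinases that release NF-κB transcription factors, and its kinase activity is known above all for the alternative branch of that pathway, which lymphoid-organ formation and B-cell maturation need. In the lung, NF-κB target genes include chemokines that draw in neutrophils and monocytes. In stratified epithelia IKKα is also known for a part in keratinocyte differentiation that does not rest on its kinase activity. Healthy lung epithelium holds surfactant-making type 2 cells, flat type 1 cells and, in the airways, club and ciliated cells. A squamous epithelium instead stacks basal cells with keratins 5 and 14 under suprabasal layers that build a cornified envelope.

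The 3 arrays were alike in the middle of their scale. Their median log2 signal was 7.13 to 7.17, and the ratio of 3′ to 5′ actin signal, a measure of RNA and labelling quality, was 1.30 to 1.41. At the top of the scale they differed, with a highest linear signal of 38918 on KA/KA 2, 40821 on KA/KA 3 and 21977 on WT 2. The part of that gap in differences of the brightest genes was not tested. Across 11610 genes, which are not independent replicates, the Pearson correlation was 0.907 between KA/KA 3 and WT 2, 0.878 between the KA/KA arrays and 0.810 between KA/KA 2 and WT 2. KA/KA 2 thus stood farthest from WT 2. Its sex-linked genes also differed: Xist, made from the inactive X chromosome of females, read 13.93, 7.22 and 7.67, and the Y-linked gene Eif2s3y read 4.78, 10.53 and 10.41. Kdm5d read 5.29, 9.02 and 9.09 and Uty 5.20, 9.13 and 9.33, both Y-linked. Sex therefore moves with every difference particular to KA/KA 2, and its part in them was not tested.

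Both KA/KA arrays read higher than WT 2 in acute-phase, chemokine, type 2 inflammation, macrophage, neutrophil, T-cell, IgM and proliferation genes, and lower in heart-muscle genes. They did not share the squamous genes, nor most of the matrix-repair genes, which were high on KA/KA 2 alone. Airway and endothelial genes were lowest on KA/KA 2, with a smaller part of them lower on both. IgA heavy chain was low on KA/KA 3 alone. Both are set against the same WT 2, so the shared counts are not 2 independent comparisons.

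limma, fitted to the 11610 genes with 1 residual degree of freedom, called 0 genes higher and 0 lower in KA/KA at an adjusted p of 0.05 (0% of the genes tested in each direction). No adjusted p was under 0.745, and 746 genes had a p under 0.05 before adjustment, 456 of them higher and 290 lower in KA/KA. These p-values, and the SEs given below, rest on the spread between KA/KA 2 and KA/KA 3, pooled in part over genes. WT 2 adds no spread and was assumed to vary like the KA/KA arrays. For a single gene an exact permutation of 3 arrays cannot go below a p of 0.333. The differences that follow are therefore descriptions of these arrays. They are counted by size: a gene is called shared where both KA/KA arrays lay at least 1 log2 unit above, or below, WT 2, and apart where 1 KA/KA array lay at least 1 unit above, or below, each of the other two.

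By that count 400 genes (3.45%) were shared higher and 254 (2.19%) shared lower. KA/KA 2 stood apart higher in 389 genes (3.35%) and apart lower in 548 (4.72%). KA/KA 3 did so in 134 (1.15%) and 128 (1.1%). The sets overlap, since 87 genes were shared higher and highest on KA/KA 2, 30 shared higher and highest on KA/KA 3, and 72 shared lower and lowest on KA/KA 2. On WT 2, 125 of the 400 shared-higher genes read in the lower 50% of the probe sets, where differences are understated and least precise. Of 111 shared-higher genes with several kept probe sets, all probe sets met the rule in 44 and only 1 did in 51. The shared genes were also read on KA/KA 1 and WT 1, the arrays of marrow-like RNA. There 16 of the 400 (4%) and 12 of the 254 (4.72%) differed by at least 1 unit in the same direction. More of them, 30 of the 400 and 26 of the 254, differed by at least 1 unit in the opposite direction. Over all genes, KA/KA 1 lay that far above WT 1 in 3.42% and below it in 1.75%. limma's interaction test, of whether the genotype difference itself differed between the 3 arrays and the marrow-like pair, called 0 genes (0%), with 650 at p under 0.05 before adjustment and none under 0.77 after it.

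**Figure D1:**
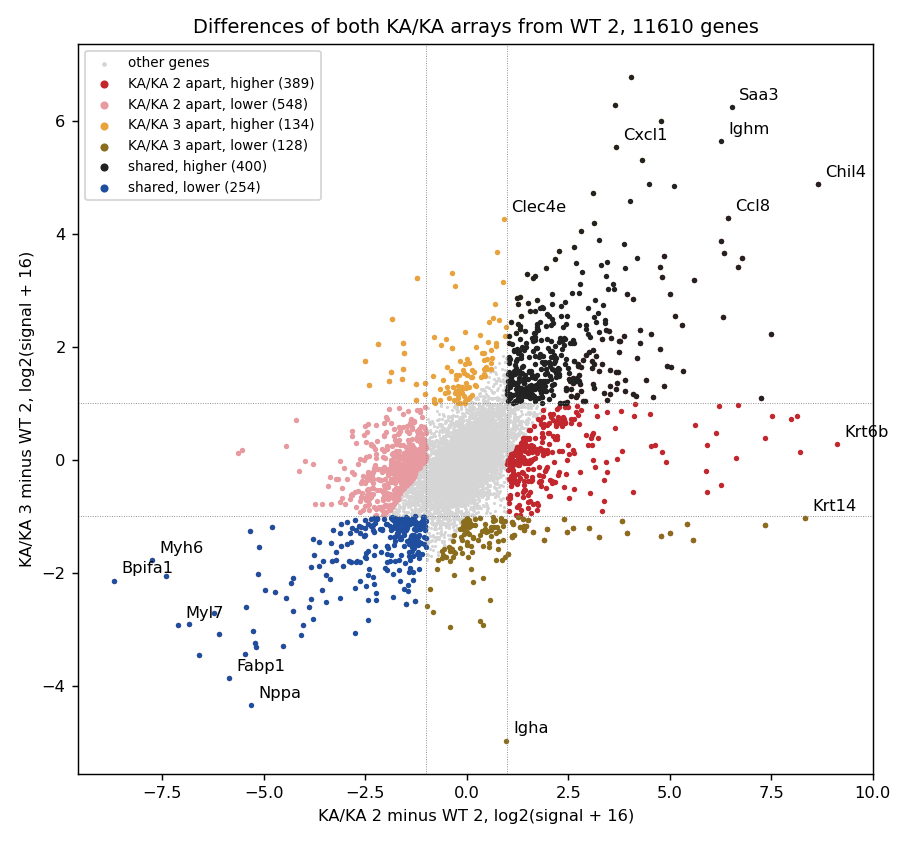
Each point is 1 of 11610 genes, placed by the difference of KA/KA 2 (horizontal axis) and of KA/KA 3 (vertical axis) from WT 2 in log2(signal + 16). Dotted lines mark 1 unit, and colours mark the shared and apart sets with their counts, a gene in both kinds of set taking the shared colour. Saa3, Ighm and Chil4 lie at the upper right, Nppa and Fabp1 at the lower left, and Krt6b and Krt14 far to the right near the line of no difference on KA/KA 3.

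The genes highest on both KA/KA arrays were led by acute-phase, chemokine and mucosal genes. Saa3, an acute-phase serum amyloid made locally in inflamed lung, read 13.86, 13.58 and 7.33, a mean difference of 6.39 ± 0.319 (SE, limma, adjusted p = 0.745). Both KA/KA arrays were far above WT 2, and they lay close to each other. On the marrow-like pair Saa3 read 6.91 on KA/KA 1 and 7.97 on WT 1. Wfdc17, a whey-acidic-protein gene of myeloid cells, read 14.30, 14.06 and 9.21. Stfa2l1, of the stefin A cysteine-protease inhibitors, read 10.05, 10.45 and 5.57. In all 3 genes the KA/KA arrays lay within 0.41 of each other and at least 4.48 above WT 2.

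Chemokines for neutrophils and monocytes belonged to the same shared set. Cxcl1 and Cxcl2, ligands of the neutrophil receptor CXCR2, read 10.31, 12.19 and 6.64, and 9.74, 9.69 and 5.87. All 3 kept probe sets of Cxcl1 met the shared rule. Ccl3, which attracts monocytes and lymphocytes, read 9.58, 10.13 and 5.55. Ccl8 read 14.96, 12.80 and 8.52. Unlike Saa3, Ccl8 was also higher on KA/KA 1, at 11.27, than on WT 1, at 8.67.

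The promoters of Cxcl1 and Cxcl2 are shown because they were the 2 of 13 most strongly shared-higher genes with a RefSeq promoter whose 250 bases before the start site held the κB motif, the type of site NF-κB binds, searched as GGGA and TTCC with any 2 bases between. Bases run 5′ to 3′ on the gene's strand, in RefSeq's GRCm38.p6 table, and the capitals mark the match, which reads as the motif on both strands and overlaps itself. They cover chr5:90890995-90891244 and chr5:90903649-90903898, both on the plus strand.
Cxcl1: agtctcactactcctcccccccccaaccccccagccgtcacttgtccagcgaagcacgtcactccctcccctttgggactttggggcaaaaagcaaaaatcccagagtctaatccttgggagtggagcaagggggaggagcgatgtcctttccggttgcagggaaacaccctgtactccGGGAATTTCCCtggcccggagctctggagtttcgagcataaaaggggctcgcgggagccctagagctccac
Cxcl2: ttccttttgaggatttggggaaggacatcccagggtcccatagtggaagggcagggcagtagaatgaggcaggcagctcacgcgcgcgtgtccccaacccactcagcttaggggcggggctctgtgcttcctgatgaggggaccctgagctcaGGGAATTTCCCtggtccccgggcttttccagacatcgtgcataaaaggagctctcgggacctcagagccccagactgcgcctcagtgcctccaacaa
The same run of capitals stands in both promoters. Searched on both strands, the motif was found before 8 of 310 shared-higher genes with a promoter (2.58%) and 3 of 195 shared-lower genes (1.54%). On KA/KA 2 it stood before 7 of 303 genes apart higher (2.31%) and 9 of 423 apart lower (2.13%). On KA/KA 3 it stood before 7 of 100 genes apart higher (7%) and 1 of 92 apart lower (1.09%). The background was 142 of 9380 genes tested (1.51%) and 397 of 32851 windows of the table (1.21%). A match is a string of letters and was not tied to binding by any value here. The window of Saa3 held none of these letters, which says nothing about the factor.

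The acute-phase and alarmin list, 16 genes with a probe set, had 8 members shared higher and 0 shared lower. Some genes, such as Lcn2, Ccl8 and Cxcl1, are in several lists, so the counts of different lists overlap. Counts of lists are over all members with a probe set, dim or bright. On that footing, over 18193 genes, 3.51% were shared higher and 2.78% shared lower, 4.17% stood apart higher and 4.7% apart lower on KA/KA 2, and 1.71% stood apart higher and 1.87% apart lower on KA/KA 3. The list's median difference was 2.18 on KA/KA 2 and 1.01 on KA/KA 3, against −0.04 and −0.03 over all genes. Lcn2, which binds bacterial iron carriers, read 14.66, 14.14 and 10.75. Chil1, a chitinase-like protein of inflamed airways, read 14.45, 13.82 and 11.21. Pigr, which carries IgA and IgM across epithelia, read 13.63, 13.02 and 10.28. Il33, an epithelial alarmin, read 13.24, 11.12 and 11.32, so KA/KA 2 was the only 1 of the 3 arrays where it stood higher.

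Type 2 inflammation, the reaction to allergens and worms, had 11 of 22 members shared higher, and 9 stood apart higher on KA/KA 2 and 5 on KA/KA 3. Chil4, a chitinase-like protein of that reaction, read 14.72, 10.94 and 6.05. Its mean difference was 6.77 ± 1.73 (SE, limma, adjusted p = 0.757), with KA/KA 2 far above KA/KA 3 and both above WT 2. Chil3, a near copy of Chil4, read 14.78, 14.86 and 13.35, and so was bright on WT 2, where Chil4 read 6.05. How far the probes of each gene also read transcripts of the other was not tested. Retnla, secreted by alternatively activated macrophages and epithelium, read 14.84, 14.38 and 11.36. The eosinophil attractant Ccl11 read 11.70, 9.71 and 7.42.

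Members of that list divided between the KA/KA arrays. Arg1, the arginase of alternatively activated macrophages, read 14.23, 8.08 and 6.99, and Ccl24, a further eosinophil attractant, 10.50, 5.57 and 5.60. Both were far higher on KA/KA 2, and Arg1 lay only 1.10 above WT 2 on KA/KA 3. Clca1 and Itln1, made by airway goblet cells in this reaction, instead read highest on KA/KA 3, at 7.89, 10.52 and 4.24, and at 10.66, 11.86 and 5.87. The anion exchanger Slc26a4 of airway epithelium read 13.32, 10.93 and 7.05, and Npy, a neuropeptide, 11.47, 8.81 and 5.14. Ms4a8a, a membrane protein found on macrophages and mucosal epithelium, read 10.14, 11.14 and 5.83. Muc5ac, the defining mucin of goblet cells, read 5.07, 5.53 and 5.05 and so was dim on all 3. The cytokines that drive the reaction were dim too, by their mean over the 3 arrays. Il4 read 7.91, 7.19 and 6.15, Il5 6.78, 5.10 and 4.76, and Il13 5.62, 4.50 and 4.81. Il4 still met the shared rule, Il5 stood apart higher on KA/KA 2, and Il13 met neither rule.

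Of 17 CC chemokines, 10 were shared higher, and the median difference was 2.26 and 2.03. The monocyte attractants Ccl2, Ccl7 and Ccl12 were highest on KA/KA 2: Ccl2 read 10.21, 8.54 and 6.43, Ccl7 10.43, 7.05 and 5.40, and Ccl12 11.64, 8.37 and 4.96. Ccl17 and Ccl22, ligands of the T-cell receptor CCR4, were highest on KA/KA 3, at 8.08, 10.35 and 7.20, and at 9.14, 10.57 and 6.87. Ccl5, a T-cell and NK-cell chemokine, did not follow, at 9.19, 11.05 and 10.30. Of 13 CXC chemokines 6 were shared higher, with Cxcl5 at 10.40, 9.14 and 5.53. Cxcl15, made constitutively by lung epithelium, differed by less than 1 unit, at 14.75, 14.57 and 13.93.

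Of 19 inflammatory cytokines 6 were shared higher: Il6 read 8.35, 6.67 and 4.79, Tnf 6.72, 8.32 and 5.15, Il10 7.12, 8.47 and 6.02, Ifng 5.86, 5.63 and 4.37, and Il1a 8.11, 7.88 and 6.37. Among them was also Il1rn, the antagonist of the interleukin 1 receptor, at 11.44, 9.51 and 7.92. Il1b, the main agonist, read 9.62, 11.68 and 8.91 and stood apart on KA/KA 3. In the list of NF-κB targets, 8 of 19 were shared higher, with a median of 0.96 and 1.40. Bcl3, an atypical IκB protein, read 9.75, 10.05 and 7.62, Tnfaip3, a feedback inhibitor, 11.04, 11.32 and 9.68, and Relb, the subunit of the alternative branch, 9.53, 9.91 and 8.52. Nfkb2, its partner, read 9.02, 9.03 and 8.23, and the endothelial adhesion gene Icam1 12.82, 13.14 and 13.07.

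The 17 interferon-response genes did not share this shift, with 0 shared higher and 0 shared lower and medians of −0.06 and −0.28. Irf7, their main transcription factor, read 8.37, 8.29 and 8.32. Complement genes divided: the C1q chains, made by macrophages, were shared higher (C1qa read 13.34, 12.42 and 9.94), while C1s1, a protease of the same complex, read 11.74, 10.98 and 11.59.

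**Figure D2:**
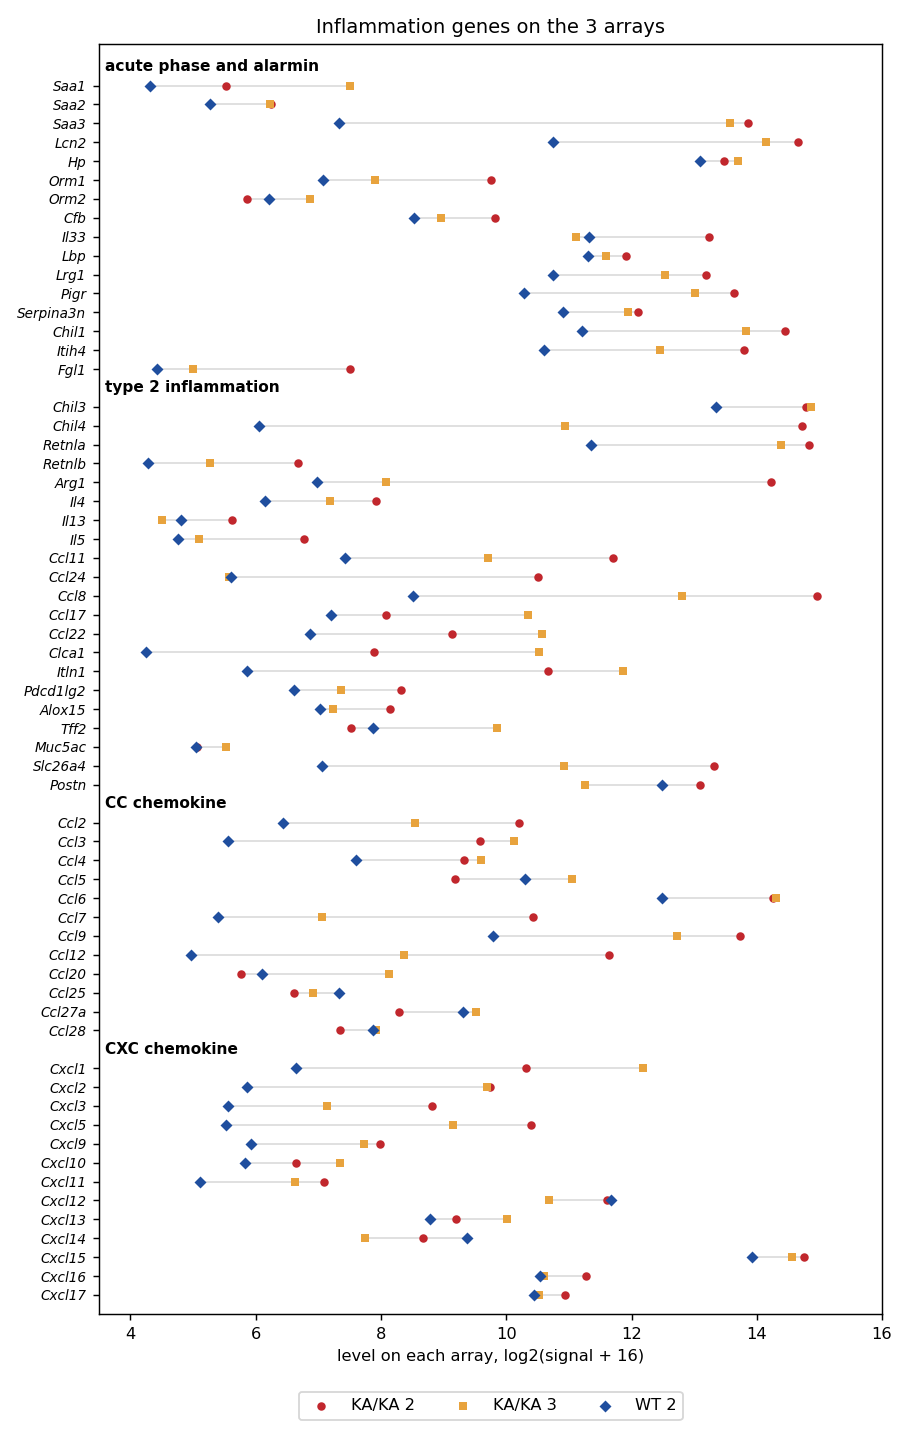
Level of each inflammation gene on the 3 arrays in log2(signal + 16), by list, with each gene in the first list that holds it. Red circles are KA/KA 2, orange squares KA/KA 3 and blue diamonds WT 2. For Saa3 the red and orange marks nearly coincide at 13.86 and 13.58, for Arg1 the red mark stands alone at 14.23, and for Ccl17 only the orange one is above 10.

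Macrophage genes were higher on both KA/KA arrays and mostly highest on KA/KA 2. Of 16 macrophage and monocyte genes 10 were shared higher, 0 shared lower and 7 apart higher on KA/KA 2, with medians of 2.22 and 1.42. Cd68, a lysosomal protein of macrophages, read 13.79, 12.44 and 10.70. Trem2, a lipid-sensing receptor, read 11.69, 8.78 and 6.39, and Cd163, the haemoglobin scavenger receptor, 11.16, 6.87 and 6.62. Csf1r, the growth-factor receptor of macrophages, differed less, at 13.48, 13.28 and 12.55. In bulk RNA, more cells of a type cannot be told apart from more RNA per cell.

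Genes of lipid-laden macrophages gave the same order, with 6 of 11 shared higher. Gpnmb, a glycoprotein of such cells, read 14.42, 12.02 and 8.82, Mmp12, the macrophage elastase, 14.53, 10.75 and 8.22, and the protease Ctsk 13.61, 12.36 and 9.52. Among 13 alveolar macrophage genes no single direction held, since 2 were shared higher and 2 shared lower. The fatty-acid carriers Fabp4 and Fabp1 read 12.74, 12.41 and 12.34, and 5.36, 7.34 and 11.20, so only Fabp1 was lower on both. Siglecf read 9.38, 9.57 and 8.99, while Marco, a scavenger receptor for particles and bacteria, read 4.81, 10.35 and 4.64. Marco was thus high on KA/KA 3 alone.

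Neutrophil genes were higher on both KA/KA arrays and in most cases highest on KA/KA 3. Of 18 members 9 were shared higher and 10 stood apart higher on KA/KA 3, with medians of 1.10 and 2.95. S100a8 and S100a9, the calprotectin subunits, read 13.97, 15.21 and 11.16, and 13.81, 14.87 and 10.67. Keratinocytes under stress also make both. Csf3r, the receptor of the neutrophil growth factor, read 9.75, 10.89 and 8.48, and Cxcr2 7.14, 8.42 and 5.74. Genes of granules filled early in development were dim: Elane read 4.83, 5.09 and 5.08, and Mpo 6.55, 7.88 and 7.16. Ngp and Ltf, of the granules filled next, did not run alike, at 7.38, 10.32 and 6.64, and at 10.25, 9.27 and 10.80. Clec4e, a receptor for mycobacterial lipid on activated myeloid cells, read 8.08, 11.42 and 7.16. Wfdc21, Ifitm6, Myrip and Tcf23 also read highest on KA/KA 3, at 12.03, 11.10, 11.79 and 9.40, and on WT 2 at 8.71, 8.60, 8.57 and 6.33. Of these, Wfdc21 and Ifitm6 are genes of myeloid cells and read 8.36 and 6.76 on KA/KA 2, where Myrip and Tcf23 read 7.35 and 6.03.

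The list of eosinophil, mast-cell and basophil genes was mixed: of 12 members 3 were shared higher and 1 shared lower, with medians of −0.30 and −0.04. The shared-higher members were eosinophil genes, dim on all arrays, with Prg2, a granule protein, at 6.75, 7.83 and 5.71, Ccr3 at 7.57, 7.87 and 4.65, and Epx at 7.23, 6.64 and 5.60.

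T-cell genes were highest on KA/KA 3, next on KA/KA 2 and lowest on WT 2. Of 20 members 10 were shared higher, 0 shared lower and 10 apart higher on KA/KA 3, and 19 were above WT 2 on both arrays, against 31.8% of all genes. Cd3d, a chain of the T-cell receptor complex, read 10.08, 11.88 and 8.59, Cd3g 9.65, 10.70 and 8.45, and Cd5 8.88, 10.46 and 7.21. Il7r, carried by resting T cells and innate lymphoid cells, read 12.63, 12.09 and 9.70. Ctla4 and Icos, of activated and regulatory T cells, read 9.32, 9.80 and 6.47, and 9.48, 9.87 and 7.38, but Foxp3, the factor of regulatory cells, 6.91, 7.00 and 6.33. Ms4a4b, of T and NK cells, read 8.23, 10.96 and 4.18. On the marrow-like pair it read 8.95 on KA/KA 1 and 4.19 on WT 1. NK-cell genes did not share the shift, with 0 of 10 shared in either direction and Gzma at 7.97, 9.07 and 9.55.

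B-lineage genes were split. Ighm, the heavy chain of IgM, read 15.08, 14.46 and 8.81, a mean difference of 5.96 ± 0.396 (SE, limma, adjusted p = 0.745), and 6 of its 7 kept probe sets met the shared rule. The size of the Ighm difference depended on the probe set. A further one read 14.86, 14.03 and 8.11, but others read 13.70, 13.54 and 10.81, and 12.71, 12.47 and 11.10. Jchain, which joins secreted IgM and IgA, read 13.51, 12.32 and 10.18. Mzb1, a chaperone of antibody secretion, read 10.53, 10.33 and 8.59, and the coactivator Pou2af1 9.94, 9.80 and 8.66. Igha, the heavy chain of IgA, differed in another way: at 13.03, 7.10 and 12.07 it was low on KA/KA 3 alone, on all 3 of its probe sets. Of 15 mature B-cell genes 3 were shared higher, and 4 stood apart higher on KA/KA 3 and 5 apart lower on KA/KA 2. Cd79b, a chain of the B-cell receptor, read 9.44, 11.10 and 9.39, and Ms4a1, which encodes CD20, 8.66, 10.97 and 9.49. Cd79a read 6.27, 8.32 and 7.43, far under 11.11 and 11.63 on KA/KA 1 and WT 1.

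Of 11 dendritic-cell genes 3 were shared higher, and 3 stood apart higher on KA/KA 3 and 2 on KA/KA 2. Ccr7, which guides these cells to lymph nodes, read 8.10, 10.42 and 8.15 and so was high on KA/KA 3 alone. Fscn1, an actin-bundling protein, read 11.46, 11.84 and 9.05, and Clec10a, a lectin of dendritic cells and macrophages, 11.21, 9.64 and 8.53. Proliferation genes were higher on both arrays to a like degree. Of 17, 8 were shared higher, with medians of 1.10 and 1.17, and Mki67 read 9.51, 9.83 and 7.45, Rrm2 9.92, 9.73 and 7.61, and Top2a 9.73, 9.30 and 8.12.

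Squamous genes formed the main difference between the KA/KA arrays. Of 13 basal keratinocyte genes 11 stood apart higher on KA/KA 2, of 14 stress-keratin and suprabasal genes 14, and of 17 cornified-envelope genes 13. On KA/KA 3 the 3 lists had 0 genes apart higher and 4, 4 and 2 apart lower. Median differences on KA/KA 2 were 3.10, 5.15 and 4.09, and on KA/KA 3 they were −0.56, −0.22 and 0.03. A filter on the mean of 3 arrays removes genes that are dim on 2 of them, so members below it are counted here.

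Krt14, the keratin that pairs with keratin 5 in basal cells, read 13.90, 4.53 and 5.56, and its second probe set gave 13.44, 4.49 and 5.17. limma put its genotype difference at 3.65 ± 4.24 (SE, adjusted p = 0.903), an average of 8.33 on KA/KA 2 and −1.03 on KA/KA 3. Krt5 read 12.85, 6.36 and 6.93, and Trp63, the transcription factor of basal cells, 9.97, 6.70 and 6.81. Krt15, also of basal cells, read 7.61, 4.40 and 4.57, and Ngfr, of airway basal cells, read 5.45, 5.61 and 6.93. Perp, of desmosomes, read 12.60, 9.72 and 10.20.

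Keratins of wounded and rapidly dividing squamous epithelium were among the largest differences on KA/KA 2. Krt6b read 14.04, 5.20 and 4.92, Krt6a 13.07, 7.40 and 6.93, Krt16 12.25, 4.37 and 4.20, and Krt17 12.12, 4.24 and 5.04. Suprabasal genes followed, with Krtdap at 13.22, 5.84 and 5.08, the galectin Lgals7 at 12.48, 5.51 and 5.13 and the cysteine-rich envelope gene Crct1 at 12.50, 5.92 and 5.88. Desmosomal and gap-junction genes did so as well: Pkp1 read 11.10, 4.55 and 4.87, Dsc2 10.38, 5.13 and 6.42, and Gjb2 12.52, 6.38 and 7.73. Dsp, present in other epithelia too, differed less, at 13.35, 10.72 and 11.88.

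Genes of the cornified envelope were not alike. The small proline-rich proteins were bright on KA/KA 2: Sprr1a read 13.52, 6.24 and 5.52, Sprr1b 11.83, 4.25 and 4.22, Sprr2d 13.45, 4.96 and 6.11, Sprr2f 13.55, 5.49 and 5.35 and Sprr2h 12.17, 5.41 and 4.64. Sprr2 genes are close copies whose probes may share transcripts. Tgm1, the enzyme that cross-links the envelope, read 10.30, 7.15 and 6.16, and its early substrate Ivl 9.37, 6.76 and 5.90. Cnfn and Rptn, of late stages, read 11.64, 5.33 and 6.63, and 10.67, 6.01 and 6.58. Other late genes differed less or within 1 unit: Flg read 7.55, 5.64 and 5.20, Lor 7.90, 7.13 and 7.78, Casp14 8.36, 8.43 and 8.67, and Lce1m 4.17, 4.87 and 4.17. Lce3a, of the stress-linked members of that family, read 10.69, 4.31 and 4.32. Asprv1 and Cdsn were the members also shared higher, at 10.81, 8.23 and 5.68, and at 8.91, 6.36 and 4.91.

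Keratins and other genes of particular squamous tissues were mixed. Krt2, of interfollicular skin, read 4.53, 4.29 and 4.17, Krt10 7.91, 7.78 and 8.43 and Krt1 10.24, 6.53 and 5.72. Of 7 genes of the oesophagus and mouth 4 stood apart higher on KA/KA 2. They were Krt6a, given above, Psca at 8.52, 4.60 and 4.74, Krt13 at 7.44, 4.87 and 4.74 and Mal at 10.70, 8.74 and 9.28, while Krt4 read 6.20, 5.40 and 7.05. Of 10 hair-follicle genes 0 stood apart higher on KA/KA 2, with Krt71 at 6.64, 5.60 and 6.74 and Krt35 at 6.23, 5.23 and 4.86. The part of skin, oesophagus or hair in the squamous values of KA/KA 2 was not tested.

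**Figure D3:**
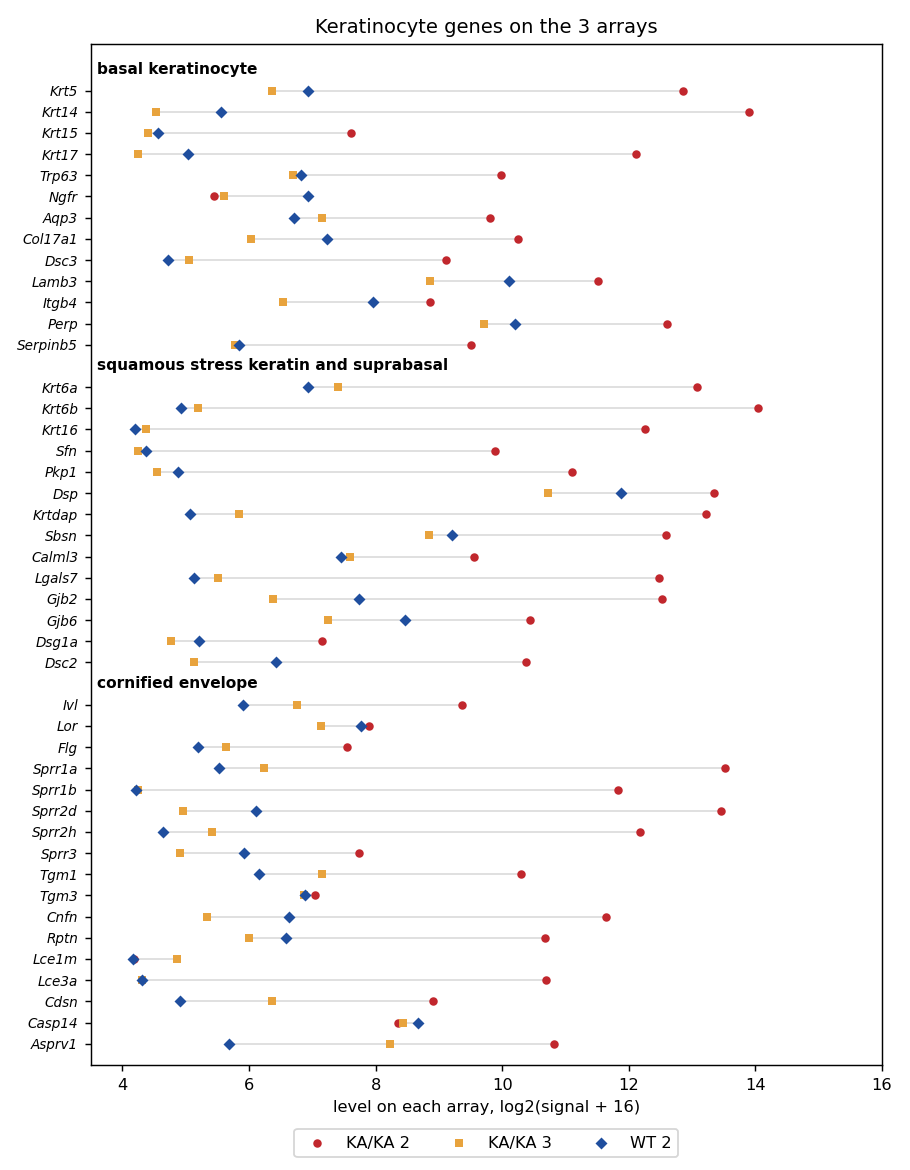
Level of every keratinocyte list member with a probe set on the 3 arrays in log2(signal + 16). Red circles are KA/KA 2, orange squares KA/KA 3 and blue diamonds WT 2, and a grey line spans the 3 values of a gene. For Krt14, Krt6b and Sprr1a the red circle lies above 13 and the other marks lie under 7, while Lor, Tgm3 and Casp14 have all marks close together.

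Promoters of Sprr1a and Krtdap are shown because AP-1, a transcription factor of squamous differentiation, has known sites before Sprr genes, and 5 of 8 named genes highest on KA/KA 2 with a RefSeq promoter held its motif TGANTCA in the 250 bases before the start. The stretch of Sprr1a is chr3:92485882-92486131 on the minus strand and that of Krtdap chr7:30787655-30787904 on the plus strand, in GRCm38.p6. Bases run 5′ to 3′ on the gene's strand, and capitals mark the motif.
Sprr1a: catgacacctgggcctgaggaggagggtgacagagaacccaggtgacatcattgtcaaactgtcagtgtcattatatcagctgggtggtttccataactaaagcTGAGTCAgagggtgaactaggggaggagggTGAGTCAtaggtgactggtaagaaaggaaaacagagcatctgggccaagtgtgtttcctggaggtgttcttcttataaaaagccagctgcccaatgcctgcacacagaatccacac
Krtdap: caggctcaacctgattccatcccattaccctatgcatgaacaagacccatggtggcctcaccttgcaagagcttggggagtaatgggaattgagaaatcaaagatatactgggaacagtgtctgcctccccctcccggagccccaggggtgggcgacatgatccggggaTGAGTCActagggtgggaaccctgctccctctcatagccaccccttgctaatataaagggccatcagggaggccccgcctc
Sprr1a carried 2 matches and Krtdap 1. Sprr2d, Sprr2f and Sprr2h, related genes that share promoter letters by descent, carried 1 each, and Krt14 and Lgals7 carried 0 in this window. Read on both strands, which for this motif give the same positions, it stood before 49 of 303 genes apart higher on KA/KA 2 (16.2%), 31 of 310 shared-higher genes (10%), 18 of 195 shared-lower genes (9.23%), 34 of 423 apart lower on KA/KA 2 (8.04%), 544 of 9380 genes tested (5.8%) and 2217 of 32851 windows (6.75%). On KA/KA 3 it stood before 7% of the genes apart higher and 10.9% of those apart lower. A match is a description of the letters and not a site shown to be used.

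Matrix genes of repair were also highest on KA/KA 2. Of 12 matrix-remodelling genes 7 stood apart higher there, and 6 stood apart lower on KA/KA 3. Mmp13, a collagenase, read 12.06, 5.48 and 6.62, Timp1, the metalloproteinase inhibitor, 12.29, 8.61 and 8.58, and tenascin C, Tnc, 11.97, 7.35 and 8.72. Fibrillar collagen read high too, with Col1a1 at 11.49, 8.30 and 8.98 and Col3a1 at 14.53, 12.23 and 12.97. Lox, which cross-links collagen, was shared higher, at 12.16, 12.94 and 11.13. Of 13 fibroblast and matrix genes 3 stood apart higher on KA/KA 2 and 3 were shared lower: Tcf21, a transcription factor of resident lung fibroblasts, read 10.90, 11.49 and 13.18, and the collagen chain Col13a1 8.64, 9.42 and 11.14, with Dcn, a proteoglycan, at 11.11, 11.91 and 12.96. Other resident-fibroblast genes did not follow, with Inmt at 13.55, 14.89 and 14.13 and Pdgfra at 12.10, 12.87 and 12.95. Col12a1 at 10.58, 7.26 and 10.19, Igfbp3 at 11.23, 8.04 and 10.90, Col27a1 at 8.72, 6.17 and 9.14 and Fndc1 at 10.19, 7.12 and 9.61 were low on KA/KA 3 alone.

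Lung epithelium differed by cell type. Type 2 cell genes were similar or slightly higher on the KA/KA arrays: of 13 members 1 was shared higher and 0 shared lower, with medians of 0.64 and 0.23. Sftpd, a surfactant lectin that binds microbes, read 14.76, 14.61 and 13.39 and was the shared member. The highest signals were lower on WT 2, as given above, and the part of that in these bright genes was not tested. Sftpb read 13.42, 13.19 and 13.18 and the lipid transporter Abca3 13.03, 12.79 and 12.67, both within 1 unit. Type 1 cell genes leaned lower, with 3 of 10 shared lower and medians of −1.12 and −0.62. Aqp5, the water channel, read 8.46, 9.52 and 11.32, Rtkn2 9.56, 10.40 and 11.54, and the anchoring protein Akap5 9.30, 10.14 and 11.79. Ager and Hopx did not follow, Hopx at 12.77, 14.22 and 13.75.

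Airway genes were lowest on KA/KA 2. Of 12 club-cell genes 9 stood apart lower on it and 4 were shared lower, with medians of −1.45 and 0.08. Bpifa1, an antimicrobial lipid-binding protein of upper airways, read 5.05, 11.60 and 13.73, and Bpifb1 6.38, 9.99 and 11.18. The cytochromes Cyp2f2 and Cyp4b1 read 12.28, 14.41 and 13.94, and 11.19, 13.71 and 13.66. Scgb1a1 itself, given above, was not lower. Reg3g, an antibacterial lectin of airway and gut epithelium, read 5.13, 10.84 and 10.67 and was low on KA/KA 2 alone. Of 13 ciliated-cell genes 8 stood apart lower on KA/KA 2 and 2 were shared lower. By any amount, 12 of the 13 lay under WT 2 on both KA/KA arrays, with medians of −1.78 and −0.54. Tppp3 read 10.17, 11.88 and 12.80, Dynlrb2, of the cilium motor, 8.89, 10.91 and 11.25, and Foxj1, the master factor of motile cilia, 6.13, 7.03 and 7.35.

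Genes of the damaged or regenerating alveolus were not uniformly higher. Of 10 members 1 was shared higher, the galectin Lgals3, at 14.68, 13.89 and 12.41, which macrophages also make. Krt8, raised in transitional alveolar cells, read 11.84, 11.06 and 11.66, and Cldn4, a tight-junction gene of injured epithelium, 10.77, 7.32 and 7.35. Endothelial genes were low on KA/KA 2, where 11 of 17 stood apart lower, and 3 were shared lower, with medians of −2.04 and −0.25. Cdh5, the adhesion protein of endothelial junctions, read 10.75, 12.66 and 13.38, and Cldn5 9.64, 12.75 and 12.14. Kdr, the main VEGF receptor, was lower on both, at 9.99, 9.74 and 12.22. Of 14 smooth-muscle genes 1 was shared lower, and Acta2, their actin, was at 13.61, 12.98 and 13.54.

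Muscle genes of the heart were lower on both KA/KA arrays. Of 16 heart-muscle members 14 were shared lower, 0 shared higher and 10 lowest on KA/KA 2, with medians of −3.82 and −2.26. Of 6 atrial genes, a list of their own, 4 were shared lower, with medians of −5.71 and −2.49, while Bmp10 read 5.38, 4.49 and 5.21 and Dkk3 10.12, 9.13 and 9.69. Myl7, the atrial myosin light chain, read 6.01, 10.20 and 13.12, a mean difference of −5.02 ± 1.91 (SE, limma, adjusted p = 0.8). The atrial natriuretic peptide Nppa read 5.66, 6.64 and 10.98, and the calcium-pump regulator Sln, also atrial, 4.76, 10.12 and 12.18. Of the heart-muscle list, Myh6, the fast cardiac myosin, read 5.68, 11.66 and 13.43. The energy genes Mb and Ckmt2 read 6.20, 8.22 and 11.67, and 5.75, 7.71 and 10.96. Pgam2 at 5.23, 6.47 and 9.76, Mybphl at 5.28, 7.16 and 10.47, Tnnc1 at 7.40, 8.37 and 11.48 and Smpx at 4.76, 7.00 and 10.04, all genes of striated muscle, kept the same order. Mouse pulmonary veins carry a sleeve of atrial muscle. Of 4 ventricular genes 0 were shared lower, with Myl2 at 4.69, 6.07 and 6.58 and Myh7, the slow cardiac myosin, at 9.67, 10.31 and 10.65. Of 9 skeletal-muscle genes 0 were shared in either direction. The summed signal of the 16 heart genes was 2543, 12225 and 54074, and the part of atrial muscle in other differences from WT 2 was not tested.

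Further genes lower on both arrays were not all of muscle. Fabp1, given above, read 5.86, 6.79 and 10.31 on its second probe set. Car3, a carbonic anhydrase of fat and muscle, read 6.11, 9.26 and 12.71, and the fat-cell hormone Adipoq 5.68, 7.29 and 9.96. Myl4 read 6.76, 9.79 and 12.87, but it was also high on the marrow-like pair, at 12.36 and 12.71, and Car3 was there at 11.41 and 11.83. Thyroid, cartilage and salivary-gland genes, which could have come with neck or chest tissue, had 0 members shared in either direction. Thyroglobulin, Tg, read 6.30, 5.71 and 6.27 and the cartilage collagen Col2a1 4.90, 4.69 and 5.57.

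**Figure D4:**
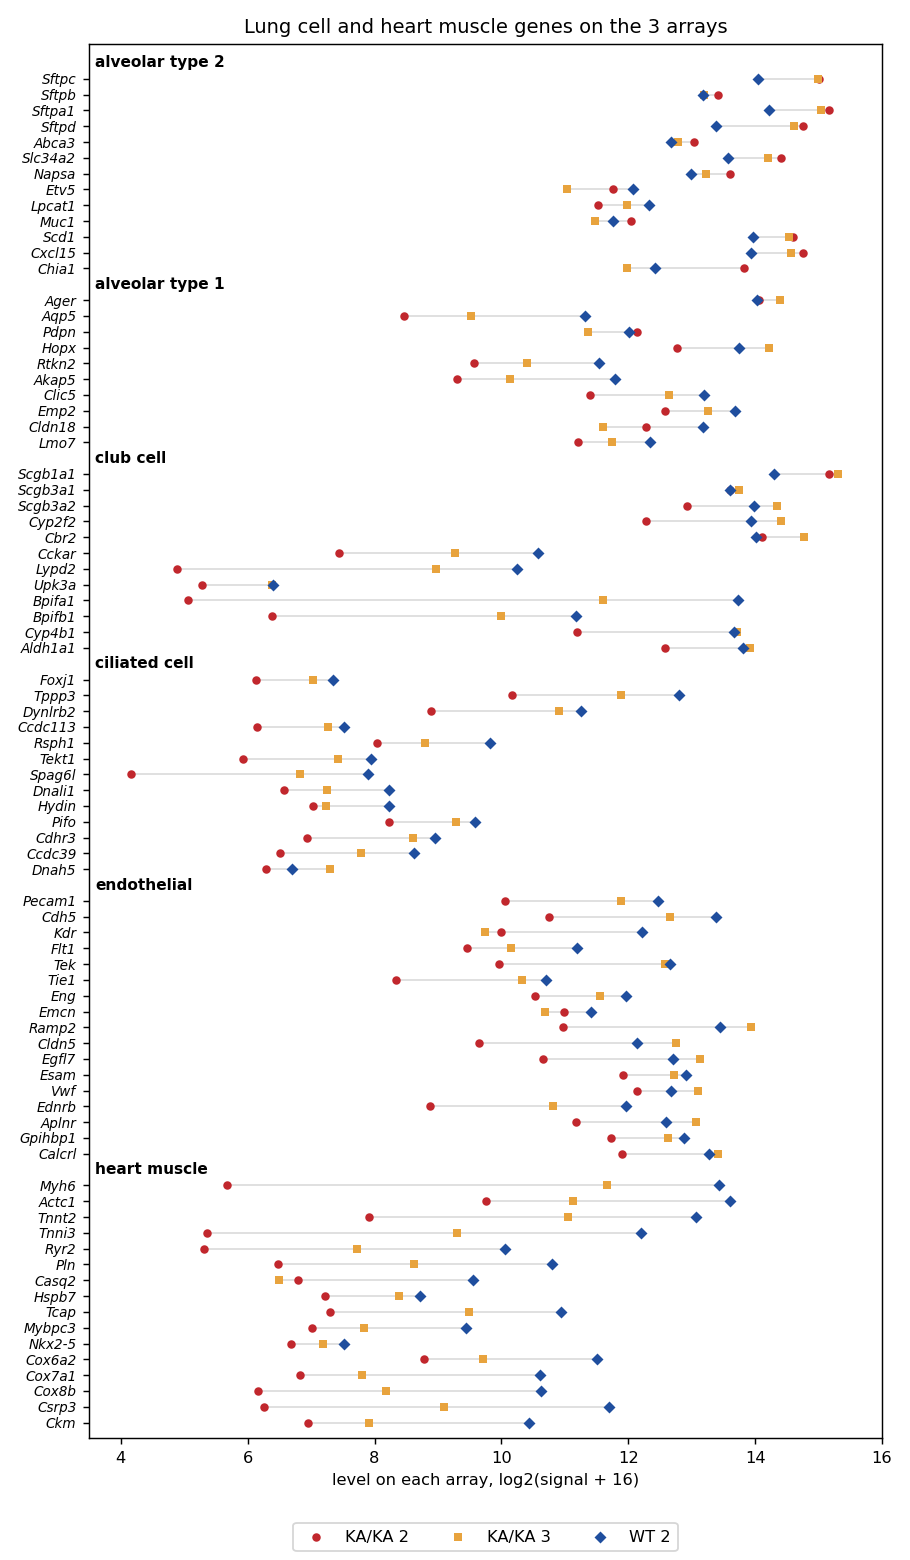
Level of each lung cell and heart-muscle gene on the 3 arrays in log2(signal + 16), by list. Red circles are KA/KA 2, orange squares KA/KA 3 and blue diamonds WT 2. Marks of type 2 genes lie close together, club, ciliated and endothelial genes have the red circle lowest in most rows, and heart-muscle genes such as Myh6 run from red through orange to blue.

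**Figure D5:**
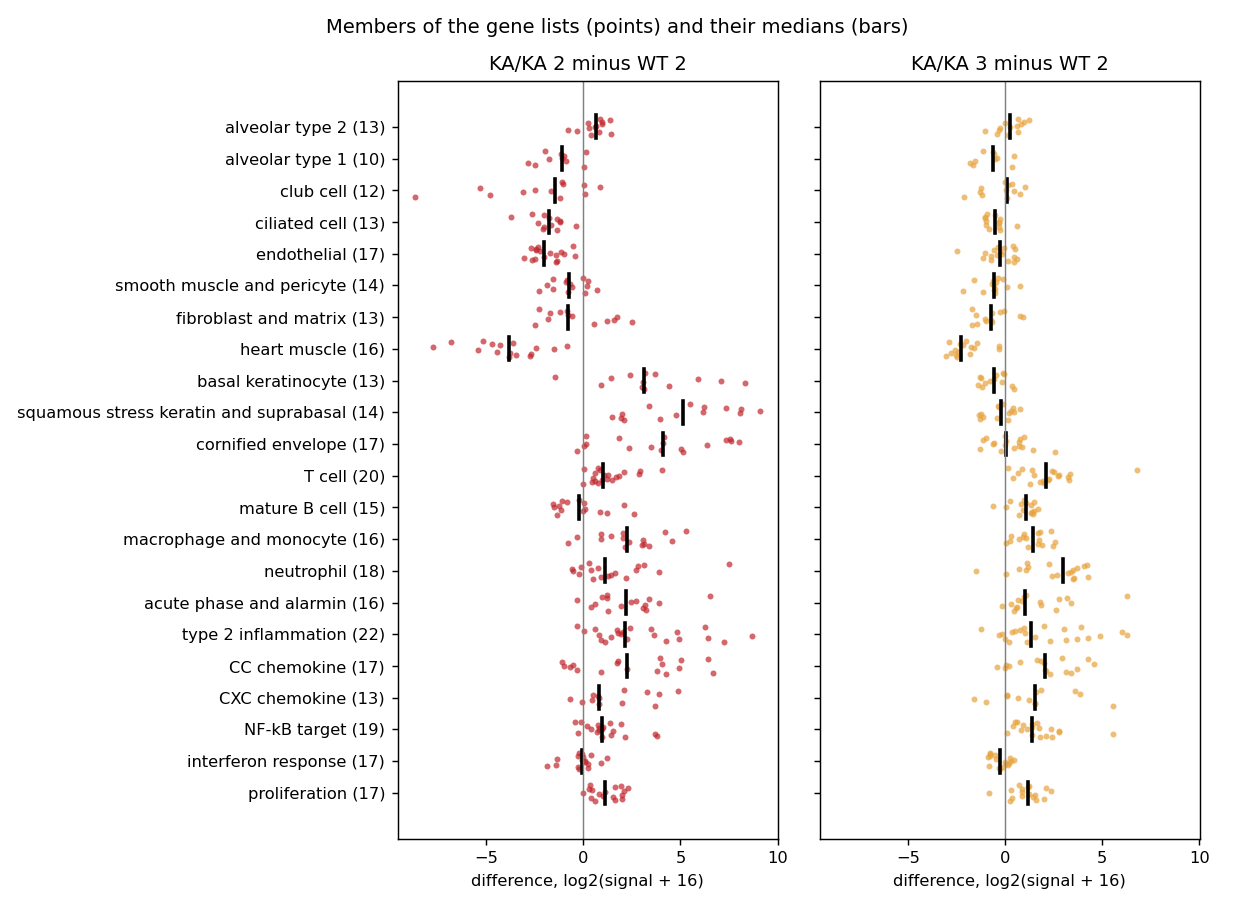
Differences from WT 2 in log2(signal + 16) for the members of 22 gene lists, KA/KA 2 on the left and KA/KA 3 on the right. Points are genes, bars are list medians, and the number of members is in brackets. Inflammation, T-cell and macrophage lists lie right of 0 on both arrays, heart muscle lies left on both, and the 3 keratinocyte lists lie right on KA/KA 2 alone, with a median of 5.15 for the suprabasal list there and −0.22 on KA/KA 3.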

How the data were processed

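RNA of 5 labelled B220+ marrow samples was hybridised to Affymetrix whole-genome mouse arrays after biotin labelling from 150 ng of total RNA, per the labels' protocols. The authors deposited 1 table of intensity values for 45101 probe sets. Per the submitters' processing notes MAS5 was used (version not given in the sources used here), and the series text speaks of log2 values, but the deposited values are linear, with a trimmed mean of 500 on each array. log2(signal + 16) was computed from them without further scaling, and the median difference over all genes was −0.06 for KA/KA 2 and −0.03 for KA/KA 3. Array data have no read depth, and the number of arrays limits the precision.

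Gene names came from the platform's annotation table: 34958 had 1 symbol, 932 several and 9160 none, and 64 were controls. The dimmer probe sets, those whose mean over the 3 arrays was under the median of all, were left out, and of several probe sets for a gene the brightest stood for it, which gave 11610 genes (6753 had only 1 probe set). limma 3.58.1 in R 4.3.3 (lmFit, eBayes with trend, Benjamini-Hochberg adjustment, threshold 0.05) compared 2 KA/KA arrays with WT 2 and, over 5 arrays, tested the interaction with the array set. On simulated data the 3-array fit recovered 15.8% of genes changed by 1 log2 unit, 83.3% by 2 and 99.4% by 4. For the interaction these shares were 1.49%, 31.9% and 93.2%. The simulation gave every array noise estimated from the KA/KA arrays, so it cannot speak for the spread of WT 2. Of 596 genes in 49 lists, 403 passed the filter, 148 were below it and 45 had no named probe set here.

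The members and lists were chosen with earlier results of these data known. Genes were named by size of the smaller difference (15 shared higher, 10 shared lower, 10 apart higher and 5 apart lower for each KA/KA array), with Saa3, Chil4, Krt14 and Myl7, and from each list by a rule of call and mean. Further list members were named for what they mark, after their values were seen. The transcript level of the mutated gene is not reported here. Promoters (250 bases) were matched by symbol to RefSeq, GRCm38.p6, for 9380 of 11610 genes. Other pseudocounts, filters, normalisations, probe set rules, folds and left-out arrays were tried.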

Additional observations from a re-analysis of the deposited data

How the results depend on the processing

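limma called 0 genes in either direction under every alternative for which it could be fitted; without the trend 727 genes had an unadjusted p under 0.05 (smallest adjusted p 0.739), and with all 5 arrays and the array set as a block 311 of 11392 did (0.999). Without either KA/KA array no test was left, and single differences from WT 2 gave 616 to 933 genes higher and 536 to 1084 lower in place of the shared 400 and 254. With no filter, shared higher and lower numbered 638 and 505, apart higher and lower 758 and 855 on KA/KA 2, and 311 and 341 on KA/KA 3. With a stricter filter on dim probe sets, the same 6 counts were 226, 100, 184, 303, 65 and 63, and with a fold of 2 log2 units 97, 43, 116, 102, 16 and 7. With a pseudocount of 64, 77 genes stood apart lower on KA/KA 3. The other 55 counts stayed within 1.5 times the main value. No named gene with a value changed sign, but 37 had no value with the stricter filter and 7 had none with a pseudocount of 1. Over all alternatives, 34 named-gene values moved by more than the spread between the KA/KA arrays and 410 did not. These include 7 moved and 18 not moved without KA/KA 2, and 18 moved and 7 not moved without KA/KA 3. The rule fixed those outcomes in advance and they say nothing about stability. With 1 array left out, a shared gene takes its smaller difference, unchanged, or its larger one, which always lies beyond the spread. For list medians, 57 moved and 341 did not. These medians, and those that follow, are over members that passed the filter in use. List medians given earlier count every member with a probe set, so the values can differ. Medians of the mean of both arrays differ in sign from KA/KA 3 alone for the club (0.11), basal keratinocyte (−0.80), suprabasal (−0.11), matrix-remodelling (−0.30), regenerating alveolar (−0.28), precursor B-cell (0.07) and lymphatic endothelial (0.79) lists, which rest on KA/KA 2. The mucous list (−0.35 on KA/KA 2 alone) rests on KA/KA 3. The regenerating alveolar median was −0.02 with averaged probe sets. NRF2 targets had a median of 0.12 that turned to −0.01 with the stricter filter, −0.03 with averaged probe sets, −0.18 without probe sets shared between transcripts and −0.30 without KA/KA 2. No paired analysis was possible because the groups compared share only the replicate number 2. WT 2 is a single array, so no alternative tests it.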

Other observations

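Immunoglobulin genes were picked out after their values were seen. Of 43 probe sets of 20 immunoglobulin heavy- and light-chain genes, 16 were at least 1 log2 unit above WT 2 on both KA/KA arrays and 0 were that far below it on both. Of the 16, 7 were among the 11 probe sets of Ighm itself and 9 among the 32 others, and over all probe sets with 1 gene symbol the share was 3.02%. In log2(signal + 16), in the order KA/KA 2, KA/KA 3, WT 2, the lambda variable gene Iglv1 read 12.05, 9.98 and 7.04 on its brightest probe set. The kappa variable gene Igkv6-14 read 10.27, 7.78 and 6.37, and Igkv4-72 9.80, 6.88 and 5.71, so both kappa genes were highest on KA/KA 2. Ighg3, an IgG heavy chain, did not share the order: its brightest probe set lay 1.26 above WT 2 on KA/KA 3 and −0.12 from it on KA/KA 2. On KA/KA 3, 5 probe sets read at least 1 unit lower than on both other arrays, among them the 3 of Igha. Variable segments are close copies of one another, and cross-hybridisation between them was not tested.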
